A study of Equus caballus with 28 samples.

Results

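The family of miR-130 and miR-301 was described in the samples of a study of early pregnancy in the mare. Its members are eca-miR-130a, eca-miR-130b, eca-miR-301a and eca-miR-301b. They were chosen by name from the deposited table of known horse microRNAs (miRNAs), with any arm of the hairpin, which gave 5 entries for the 4 names, because eca-miR-301b was listed as both eca-miR-301b-3p and eca-miR-301b-5p. These are 5 of 690 known miRNAs, and 154 predicted miRNAs brought the total to 844.

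Small RNA was sequenced from 28 samples collected 13 days after ovulation. The uterus was sampled in 4 cyclic and 5 pregnant cycles, each time as a biopsy of the endometrium and as uterine fluid (UF). From each of the 5 embryos came a library of the tissue and a library of the fluid in its yolk sac (YS). The animals were Warmblood mares that each went through a pregnant and a cyclic cycle, so that a mare served as her own control, and no cyclic library of mare 5 was used here. Cyclic mares were left unbred, pregnant mares were inseminated, and mares of both kinds of cycle had received hCG (human chorionic gonadotropin, which triggers ovulation). UF was taken up by a tampon and YS fluid was drawn from the embryo with a needle. The embryonic tissue was kept without its capsule. A different extraction kit was used for fluids and for tissues, so that fluid and kit cannot be told apart in any comparison of a fluid with a tissue.

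MiRNAs are short RNAs that guide silencing proteins to messenger RNAs, mainly through the seed at their 5′ end. The members described here have the same seed in the 3′ arm of their hairpin and are therefore thought to share many targets, whereas a 5′ arm such as eca-miR-301b-5p carries another seed. MiR-454 is commonly placed in the same seed group. MiR-130a is known from endothelial cells and blood vessel growth, miR-301a from a hairpin within an intron of SKA2, a gene of the mitotic spindle, and miR-130b and miR-301b from a shared cluster. The RefSeq annotation of the horse (assembly TB-T2T) likewise placed MIR130B and MIR301B within 10 kb of each other. It placed MIR301A and MIR454 within 10 kb of each other inside SKA2, and no miRNA gene within 10 kb of MIR130A. Their strand and distance on EquCab2.0, the genome build of the counts, were not analysed here.

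The depth of the libraries sets how low a member could be seen. Library totals were 61836 to 371630 reads in cyclic endometrium and 280065 to 590593 in pregnant endometrium. They were 62087 to 226308 reads in cyclic UF, 79173 to 152860 in pregnant UF, 28204 to 44768 in embryos and 4352 to 14531 in YS fluid. Levels are given as CPM, the reads of a miRNA scaled to 1000000 reads in its library, and 3 reads, taken as the lowest count to read as a level, correspond to 5.08 to 10.7 CPM in pregnant endometrium but to 206 to 689 CPM in YS fluid. Errors of levels are SDs between samples, and intervals on counts cover counting error only. In these bulk samples fewer cells of a type and less of a miRNA per cell cannot be told apart.

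The labels of the tissues were compared with marker miRNAs. The 8 entries of the early embryonic miRNAs of the miR-302, miR-367, miR-371 and miR-372 groups summed to 12020 to 65295 CPM in embryos and 34891 to 264130 CPM in YS fluid, but to at most 9.97 CPM in endometrium and 32.2 CPM in UF. The endothelial miR-126 (2 entries) summed to 1598 to 4816 CPM in endometrium and 134 to 346 CPM in embryos. Stromal and smooth muscle miRNAs (5 entries, led by miR-143 and miR-199a) summed to 12110 to 45569 CPM in endometrium, 275 to 5532 CPM in UF, 156 to 797 CPM in embryos, where eca-miR-199a-5p and eca-miR-214 had no read, and 484 to 5515 CPM in YS fluid. Epithelial miRNAs of the miR-200 family, miR-141 and miR-205 (6 entries) were present in all groups, at 48703 to 131812 CPM.

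The 5 entries together had 3508 reads in the 28 libraries, and most belonged to 1 member. Eca-miR-130a had 2787 reads and was found in 28 of 28 libraries. Eca-miR-130b had 415 reads in 27 libraries and eca-miR-301a had 283 reads in 25 libraries. Eca-miR-301b-3p had 22 reads in 7 libraries, and eca-miR-301b-5p had 1 read in 1 library. Thus eca-miR-130a, eca-miR-130b and eca-miR-301a had reads in all 6 groups, but no pregnant UF library reached 3 reads of eca-miR-130b and 1 of 5 YS fluid libraries reached 3 reads of eca-miR-301a. Eca-miR-301b-3p reached 3 reads in 3 embryos, and eca-miR-301b-5p was not measurable at this depth.

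Eca-miR-130a was the most abundant member in the uterus. In cyclic endometrium its level was 873, 711, 565 and 485 CPM in mares 1 to 4, and in pregnant endometrium it was 628, 663, 1023, 828 and 476 CPM in mares 1 to 5. The groups had means of 659 ± 171 CPM (SD, n = 4) and 723 ± 209 CPM (SD, n = 5) and overlapped over most of their range. By mean level eca-miR-130a ranked 71st of the 308 known miRNAs with a read in pregnant endometrium. In UF it reached 712, 526, 387 and 395 CPM in cyclic mares 1 to 4 and 260, 393, 386, 325 and 392 CPM in pregnant mares 1 to 5. The highest and lowest UF values were the cyclic and the pregnant sample of the same animal, mare 1.

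In embryos eca-miR-130a was at 886, 625, 1160, 1663 and 1304 CPM, a mean of 1128 ± 397 CPM (SD, n = 5), which spans the upper part of the endometrial range and exceeds it in 3 of the 5 embryos. In YS fluid it was found in every library, but 1, 12, 1, 3 and 4 reads lay behind 132, 830, 76.5, 689 and 275 CPM, so that the order of these samples cannot be read. The 95% Wilson interval of YS sample 2, with the most eca-miR-130a reads, was 475 to 1451 CPM and included 4 of the 5 embryo values. That of YS sample 5, the YS library with the highest total (14531 reads), was 107 to 708 CPM and included only the lowest, 625 CPM.

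Eca-miR-130b had a different distribution. Its level was 16.2, 29.9, 10.8 and 14.4 CPM in cyclic endometrium and 11.6, 20.7, 3.39, 21.4 and 3.47 CPM in pregnant endometrium, from 18 and 20 reads in all. It was 45.9, 53.0, 0 and 41.0 CPM in cyclic UF, where the sample without a read was the smallest UF library (62087 reads, for which 3 reads are 48.3 CPM). It was 14.8, 8.37, 13.1, 12.1 and 12.6 CPM in pregnant UF, from 1 or 2 reads in each library, all under the 3-read level. In embryos eca-miR-130b was at 1631, 1340, 1740, 1316 and 1811 CPM (282 reads, mean 1568 ± 228 CPM, n = 5). In YS fluid it was at 1318, 1799, 536, 689 and 963 CPM (60 reads, mean 1061 ± 508 CPM, n = 5). Each of these 10 conceptus libraries was above each of the 18 uterine libraries. By mean level it ranked 52nd of the 257 known miRNAs with a read in embryos and 72nd of the 247 in YS fluid.

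Eca-miR-301a was low in the uterus as well. It was at 16.2, 33.2, 56.5 and 68.3 CPM in cyclic endometrium, 20.3, 59.2, 32.2, 107.1 and 34.7 CPM in pregnant endometrium, 40.2, 115, 0 and 66.7 CPM in cyclic UF and 22.3, 58.6, 65.4, 108.5 and 12.6 CPM in pregnant UF. The 4 uterine groups overlapped, with means between 43.5 and 55.4 CPM. In embryos it was at 177, 357, 359, 381 and 483 CPM (mean 352 ± 110.3 CPM, n = 5), above all uterine samples per library total. In YS fluid 5 reads in all gave 132, 208, 76.5, 0 and 0 CPM, so that this group was under or at the 3-read level in each library.

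Of the 22 reads of eca-miR-301b-3p, 17 came from embryos. The embryos had 0, 2, 4, 4 and 7 reads, a mean of 92.6 ± 69.2 CPM (n = 5), and embryo 1 had none. Pregnant endometrium had 3 reads, 1 in mare 1 and 2 in mare 3, and cyclic UF had 2 reads, both in mare 2. No read was found in cyclic endometrium, in pregnant UF or in YS fluid, but 3 reads in YS fluid would correspond to a mean of 346 CPM, which is above the level in embryos, so that an equal level could not have been seen there. The single read of eca-miR-301b-5p was in embryo 3.

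**Figure D1:**
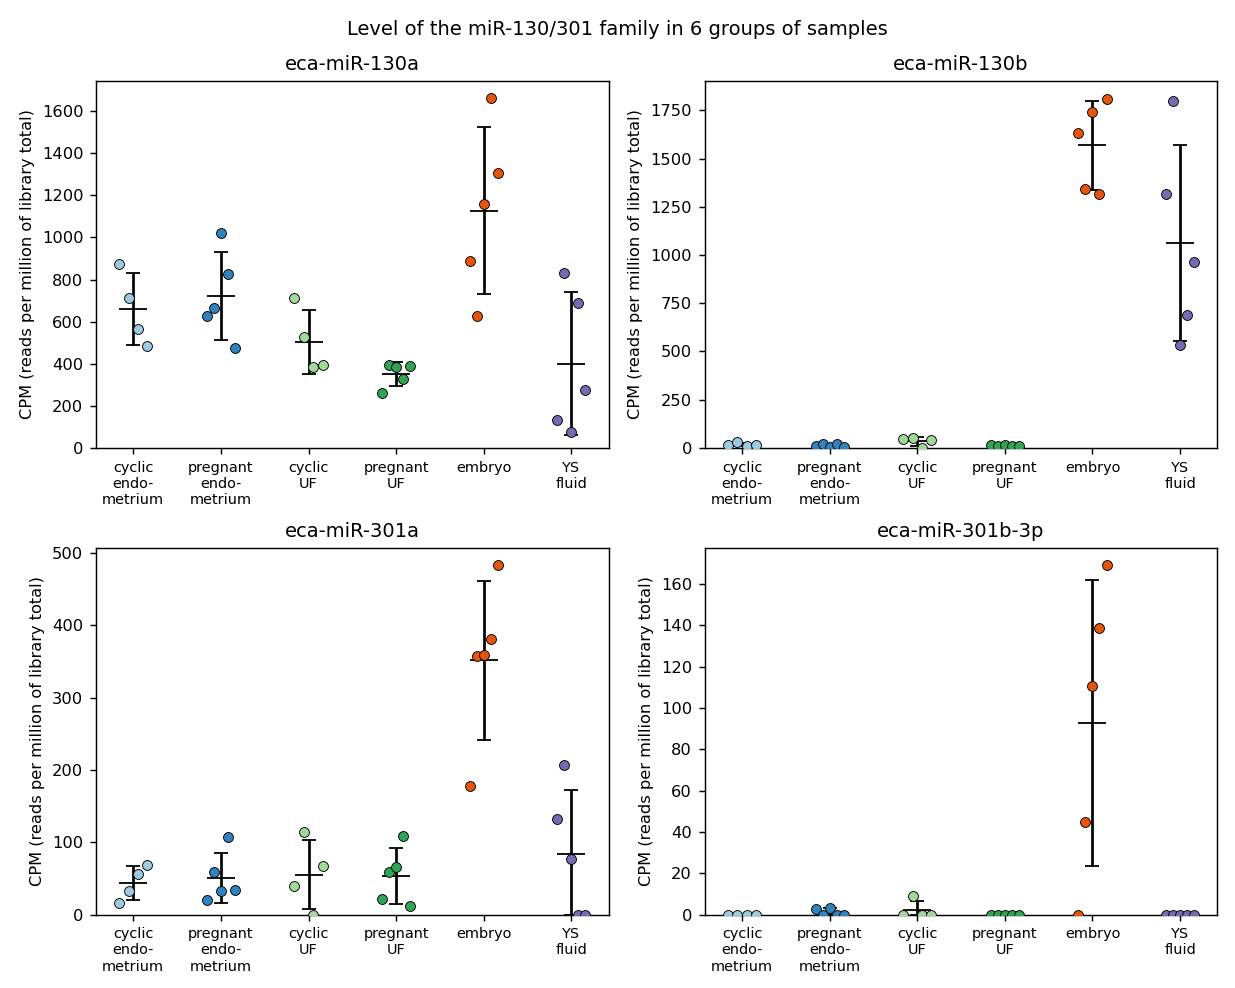
Level of 4 members in the 6 groups, in CPM of the library total (linear axes that differ between panels). Each point is a library, horizontal lines are group means and bars are SDs, drawn down to 0 at the lowest. Eca-miR-130a overlaps between neighbouring groups, and on a scale normalized over all libraries the embryo mean lies below both endometrial means. Eca-miR-130b is between 0 and 53.0 CPM in all uterine samples and between 536 and 1811 CPM in all conceptus samples.

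Ordered by mean CPM, eca-miR-130a ran from embryo through pregnant endometrium, cyclic endometrium, cyclic UF and YS fluid to pregnant UF, and the values of all neighbouring groups overlapped. Eca-miR-130b ran from embryo through YS fluid, cyclic UF, cyclic endometrium and pregnant UF to pregnant endometrium. Only YS fluid and cyclic UF did not overlap in that order (two-sided exact permutation test, p = 0.0159, the smallest value that 4 against 5 samples allow here, 0.119 after adjustment over the 15 neighbouring pairs of the 3 members). Eca-miR-301a ran from embryo through YS fluid, cyclic UF, pregnant UF and pregnant endometrium to cyclic endometrium. Embryo and YS fluid had p = 0.0159 in the exact permutation test and 0.119 after adjustment, although 1 value overlapped. None of the 15 neighbouring pairs passed 0.05 after adjustment. These pairs came from sorting the same values, so that groups far apart were not compared, and samples of the same mare were not paired. Since the eca-miR-130b pair without overlap did not pass either, these tests cannot show that neighbouring groups are alike.

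The order of eca-miR-130a depended on the scaling. With TMM (trimmed mean of M values, a factor per library that sets the bulk of miRNAs equal between libraries) over the 28 libraries, its mean was 1252 CPM in pregnant endometrium, 1042 CPM in cyclic endometrium, 711 CPM in cyclic UF, 673 CPM in embryos and 488 CPM in pregnant UF. Embryos were thus highest per library total and below both endometrial groups after TMM. YS fluid, which lay above pregnant UF per library total, was lowest after TMM, at 177 CPM. On the second scale eca-miR-130b kept embryo (940 CPM) and YS fluid (407 CPM) far above all uterine groups. These were cyclic UF (47.6 CPM), cyclic endometrium (27.2 CPM), pregnant endometrium (20.1 CPM) and pregnant UF (17.2 CPM).

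Shares of the family's reads within a library do not depend on the scaling. Eca-miR-130a made up 85.4 to 96.4% of the family in cyclic endometrium, 86.6 to 96.3% in pregnant endometrium, 74.8 to 100% in cyclic UF and 73.0 to 93.9% in pregnant UF. It made up 26.4 to 47.5% in embryos and 8.33 to 50% in YS fluid. Eca-miR-130b made up at most 3.86% in cyclic endometrium, 2.79% in pregnant endometrium, 8.16% in cyclic UF and 5% in pregnant UF. It made up 37.6 to 60.5% in embryos (pooled 50.2% of 562 reads) and 50 to 83.3% in YS fluid (pooled 69.8% of 86 reads). Eca-miR-130b thus had fewer reads than eca-miR-130a in 18 of 18 uterine libraries, more in 4 of 5 embryos and more in 4 of 5 YS fluids, with equal reads in the remaining YS library. The exception among embryos was embryo 4, with 37.6% (95% Wilson interval 28.8 to 47.4%) eca-miR-130b and 47.5% eca-miR-130a.

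**Figure D2:**
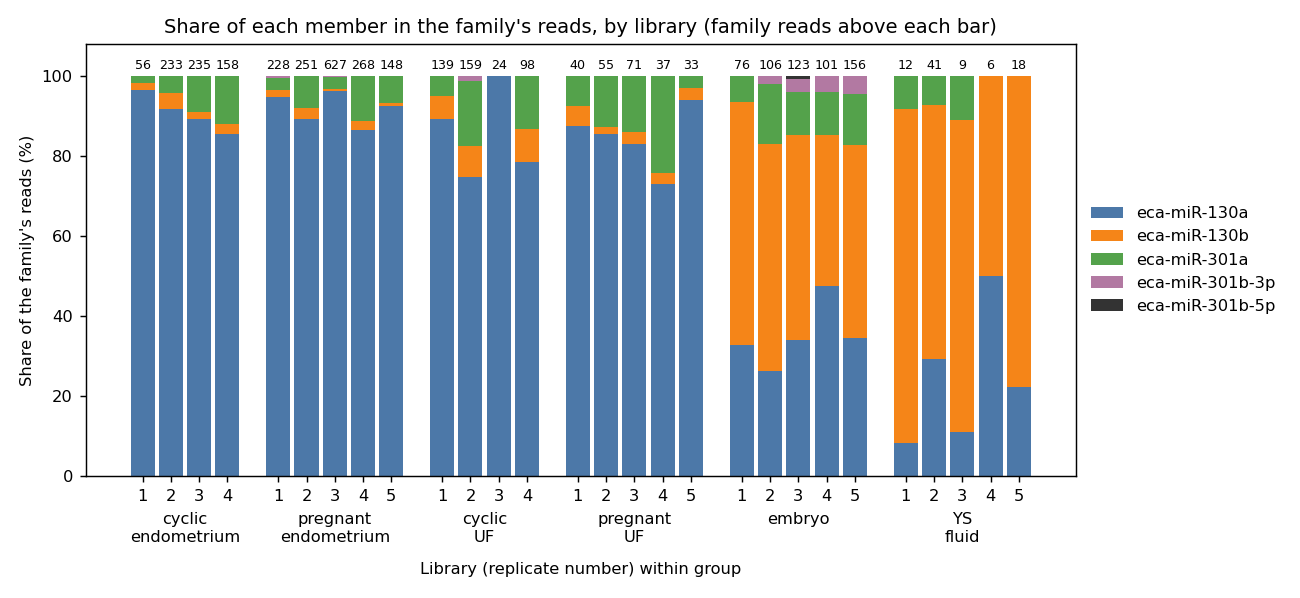
Share of each member in the family's reads (%), as a stacked bar for each library, with the number of family reads above it. Eca-miR-130a fills 73.0 to 100% of the uterine bars, and eca-miR-130b fills 37.6 to 83.3% of the embryo and YS fluid bars, where the YS fluid bars rest on 6 to 41 reads.

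Summed over the family, the level was 720 ± 151 CPM in cyclic endometrium, 788 ± 222 CPM in pregnant endometrium, 597 ± 187 CPM in cyclic UF, 417 ± 69.6 CPM in pregnant UF, 3145 ± 588 CPM in embryos and 1545 ± 794 CPM in YS fluid. Embryos lay between 2368 and 3768 CPM and did not overlap with any uterine group. After TMM over the 28 libraries the sums were 1869 CPM in embryos, 1359 CPM in pregnant endometrium and 612 CPM in YS fluid, so that embryos remained highest by mean while YS fluid moved below endometrium.

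Whether pregnancy changed the family in the endometrium was tested with edgeR, in a fit over all miRNAs with the mare as a block. A miRNA was called where it changed 2-fold or more and its FDR (Benjamini-Hochberg) did not exceed 0.05, and 3 of the 5 entries passed the low-count filter. Of these, 0 were called, against 3.37% of all miRNAs tested (13 of 386), and 0 had an unadjusted p under 0.05, against 65 of all miRNAs. DESeq2 also called 0 members. The study itself, with edgeR and the same thresholds, listed eca-miR-130a among the miRNAs higher in pregnant biopsies. The reason for this difference was not tested. Between pregnant and cyclic endometrium, eca-miR-130a differed by 0.51 (SE 0.30) on the log2 scale in the edgeR quasi-likelihood test, with an FDR of 0.433 and a 95% interval of -0.08 to 1.10. A rise to above 2-fold was thus barely within the interval, and a fall of that size was outside it. Mares disagreed: per library total the pregnant sample was higher in mares 3 and 4, by 458 and 343 CPM, and lower in mares 1 and 2, by 245 and 48.1 CPM, and after TMM it was higher in 3 of 4 mares. Without mare 3 the difference was 0.13 on the log2 scale.

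Eca-miR-130b differed by -0.21 (SE 0.72, edgeR FDR 0.955, interval -1.61 to 1.19) between pregnant and cyclic endometrium, with a lower level in 3 of 4 mares. Eca-miR-301a differed by 0.42 (SE 0.55, edgeR FDR 0.833, interval -0.67 to 1.501), with a higher level in 3 of 4 mares. These intervals admit changes of more than 2-fold. The groups held 18 to 86 reads, including those of mare 5, which did not enter the contrast. The median of the 3 members tested was 0.42 on the log2 scale, beside 0.08 for all miRNAs tested, and the other 2 entries had too few reads. Eca-miR-454 differed by 0.28 (SE 0.55, edgeR FDR 0.915). The immune cell miRNAs (miR-142, miR-150, miR-155 and miR-223) summed to 1956 to 3265 CPM in cyclic and 2816 to 3474 CPM in pregnant endometrium, and the red cell miRNAs (miR-144, miR-451 and miR-486) to 6501 to 13506 CPM and 2674 to 11285 CPM. Within the immune list, eca-miR-155 had means of 1551 CPM in cyclic and 2431 CPM in pregnant endometrium. Eca-miR-142-3p (30.5 and 24.9 CPM), eca-miR-142-5p (387 and 275 CPM) and eca-miR-150 (129 and 83.4 CPM) were lower in pregnant endometrium. Eca-miR-223 was similar in both (312 and 317 CPM). The part of immune and red cells in these differences was not tested.

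In UF, 0 of the 3 members tested were called between pregnant and cyclic mares, against 4.92% of all miRNAs (15 of 305), and 0 members had an unadjusted p under 0.05, against 43 of all miRNAs. DESeq2 called 0 members here too. Eca-miR-130a was lower in the pregnant than in the cyclic sample in 4 of 4 mares, but in mare 3 by only 0.58 CPM. The fitted difference of -0.45 (SE 0.47, edgeR FDR 0.837, interval -1.38 to 0.48) did not pass. Eca-miR-130b was lower in 3 of 4 mares, from 45.9, 53.0 and 41.0 CPM to 14.8, 8.37 and 12.1 CPM, while mare 3 had no read in the cyclic sample. Its difference was -1.33 (SE 0.86, edgeR FDR 0.552, interval -3.02 to 0.36). The groups held 28 cyclic and 7 pregnant reads, of which 1 came from mare 5, which did not enter the contrast. Eca-miR-301a was at 0.25 (SE 0.62, edgeR FDR 0.977), higher in 2 and lower in 2 mares, and its sign turned to -0.03 without the block and to as low as -0.20 without single mares. The median of the members tested was -0.45, beside 0.01 for all miRNAs tested.

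The difference between the pregnancy effects in UF and in endometrium was tested as an interaction. It was -1.08 (SE 0.50) on the log2 scale for eca-miR-130a, with an unadjusted p of 0.0379 and an edgeR FDR of 0.737. Thus 0 of 3 members tested were called, against 1.69% of all miRNAs (7 of 415), while 28 miRNAs, eca-miR-130a among them, had an unadjusted p under 0.05. Eca-miR-130b and eca-miR-301a had values of -1.28 and -0.27, the latter turning to 0.03 with RLE size factors (relative log expression, another scaling).

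**Figure D3:**
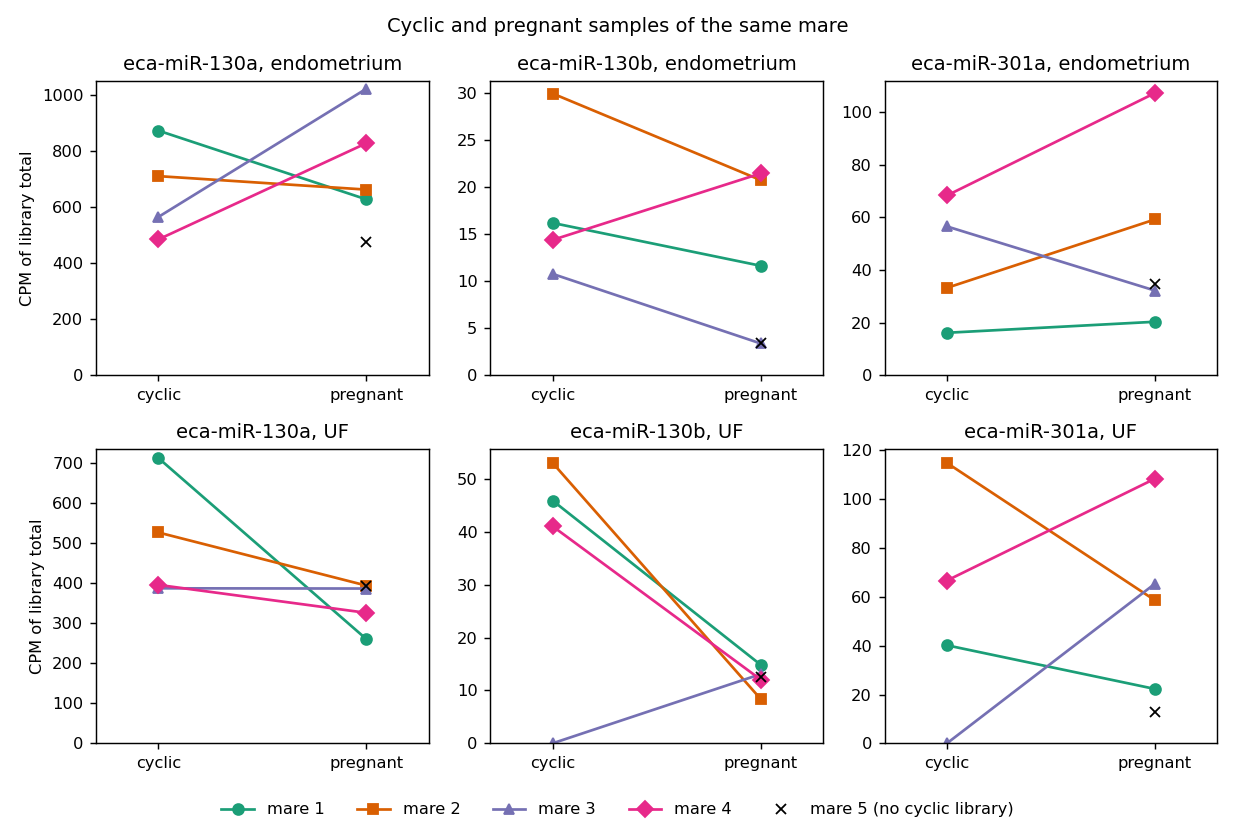
Cyclic and pregnant samples of the same mare for 3 members, in CPM of the library total, in endometrium (top) and UF (bottom). Lines join the samples of mares 1 to 4 and crosses are mare 5, which had no cyclic library here. Eca-miR-130a rises in 2 and falls in 2 mares in the endometrium, and no member is called in either compartment.

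Embryos differed from pregnant endometrium in 3 members, called higher at a background of 28.7% of miRNAs called higher and 71.3% called in either direction (256 of 359). Here 4 of the 5 entries passed the filter, eca-miR-301b-3p with reads in 4 embryos and 2 endometria. Eca-miR-130b was 5.67 (SE 0.60) higher on the log2 scale, or 50.8-fold, with an edgeR FDR of 6.47e-06. It was higher in 5 of 5 mares without overlap, and was called in 13 of 13 alternatives. Per library total the ratio of pooled reads was 144.6 (exact 95% interval 91.9 to 240 from 282 and 20 reads). Eca-miR-301a was 1.501 higher (SE 0.47, 2.83-fold, edgeR FDR 0.0129), also in 5 of 5 mares but with overlapping values after TMM, and it was no longer called without mare 3 (1.29, edgeR FDR 0.0555) or without mare 5 (1.25, edgeR FDR 0.0676). Eca-miR-301b-3p was 4.11 higher (SE 0.83, edgeR FDR 0.00103) in 4 of 5 mares, and called in 12 of the 12 alternatives that tested it. Another low-count filter (filterByExpr) removed it. Without mare 1 or without a filter its embryo reads alone let it enter, so that those calls add nothing. Its pooled ratio of 58.1 had an exact 95% interval of 16.8 to 310, since it rested on 17 against 3 reads.

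Eca-miR-130a was not called between embryo and pregnant endometrium, and its direction depended on the scaling. The fitted difference was -0.71 (SE 0.38, edgeR FDR 0.103, interval -1.45 to 0.03), with a lower embryo in 4 of 5 mares after TMM. Per library total the embryo was higher in 4 of 5 mares, with a ratio of means of 1.56, and a fit with library totals in place of TMM gave 0.64 (edgeR FDR 0.164). The TMM factors were 1.47 to 1.85 in embryos and 0.556 to 0.759 in endometrium. The median of the 4 members tested was 2.81, beside -1.03 for all miRNAs tested. RLE size factors moved the latter by 0.47, and library totals took it to 0.30 and the share of calls that were higher in embryos from 40.2 to 59.8%.

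Levels of other markers moved between these tissues as well. Endothelial miR-126, stromal miRNAs, immune cell miRNAs (48.3 to 193 CPM in embryos, with eca-miR-142-3p and eca-miR-150 at 0) and red cell miRNAs (112 to 314 CPM in embryos, with eca-miR-144 at 0) were lower in embryos. The means of eca-miR-142-3p and eca-miR-144 in pregnant endometrium (24.9 and 28.3 CPM) were below 3 reads in any embryo (67.0 to 106 CPM). An equal level of these 2 could thus not have been read in a single embryo. Endoderm miRNAs (miR-122, miR-192 and miR-194) summed to 1808 to 9114 CPM in embryos and 142.2 to 520 CPM in pregnant endometrium. The part of these cell types in the differences of the family was not tested.

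Pregnant UF and pregnant endometrium of the same mares differed in 1 of 3 members tested, against 20.1% of miRNAs called lower and 33.7% called in either direction (121 of 359). Eca-miR-130a was lower in UF in 5 of 5 mares without overlap. The difference was -1.19 (SE 0.30, interval -1.78 to -0.60) with an edgeR FDR of 0.00593, and it was called in 13 of 13 alternatives, with values from -1.32 to -1.01. Markers of endothelium, stroma and red cells were lower in pregnant UF as well. There miR-126 summed to 7.42 to 316 CPM, stromal miRNAs to 275 to 5532 CPM and red cell miRNAs to 519 to 3246 CPM. In pregnant endometrium they summed to 1598 to 4816, 12110 to 45569 and 2674 to 11285 CPM. Other lists were not lower. Epithelial miRNAs summed to 65482 to 90675 CPM in pregnant UF and 49244 to 72098 CPM in pregnant endometrium, and endoderm miRNAs to 321 to 1269 and 142.2 to 520 CPM. Within these 2 lists, eca-miR-141 (5400 and 7584 CPM) and eca-miR-122 (3.89 and 17.2 CPM) were lower in pregnant UF. The part of these cell types in the lower eca-miR-130a was not tested. Eca-miR-130b and eca-miR-301a were at -0.02 (SE 0.67, edgeR FDR 0.988) and 0.03 (SE 0.59, edgeR FDR 0.978), and the sign of each turned under some alternatives. The median of the members tested was -0.02, beside -0.12 for all miRNAs.

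In cyclic mares, eca-miR-130a was also lower in UF than in endometrium in 4 of 4 mares, but by -0.49 (SE 0.42, edgeR FDR 0.414), and 0 of the 3 members tested were called, against 30.8% of miRNAs (101 of 328) and against 125 miRNAs with an unadjusted p under 0.05, among them 0 members. DESeq2 called 0 members as well. Eca-miR-130b was at 0.85 (SE 0.69, edgeR FDR 0.394) and eca-miR-301a at 0.07 (SE 0.70, edgeR FDR 0.948). Eca-miR-301a ranged from -0.51 to 0.59 when single mares were left out, and the median of the members was 0.07, beside -0.24 for all miRNAs tested. That the lower eca-miR-130a in UF was called in pregnant and not in cyclic mares does not show a difference between them, since the interaction above did not pass.

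The comparison of embryo with pregnant UF, which shares its embryos with the comparison above, gave 1 called member of 3 tested, against 29.7% of miRNAs called higher and 68.4% in either direction (212 of 310). Eca-miR-130b was 5.36 higher on the log2 scale in embryos (SE 0.47, edgeR FDR 1.39e-06), in 5 of 5 mares without overlap and in 13 of 13 alternatives. Pooled per library total, it was 128 times as high (exact 95% interval 61.2 to 321). Eca-miR-301a was 1.13 higher in 5 of 5 mares (SE 0.61, edgeR FDR 0.113, interval -0.06 to 2.32) and passed in 6 of 13 alternatives, among them RLE size factors (1.85, edgeR FDR 0.00583) and leaving out mare 1 (1.48, edgeR FDR 0.0420). Eca-miR-130a was at 0.12 (SE 0.41, edgeR FDR 0.825), at 1.68 with library totals (edgeR FDR 0.00308), and at -0.05 without mare 4. Eca-miR-301b-3p did not pass the filter here. Its embryo mean, from 17 reads with none in embryo 1, was 3.28-fold the level of 3 reads per library of pregnant UF, where it had none. This ratio leaves out the counting error of the embryos.

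Both YS fluid and embryo come from the conceptus, and eca-miR-130b was high in both. Against YS fluid, embryos had 2 of 3 tested members called higher, at a background of 22% called higher and 35.1% in either direction (91 of 259). Eca-miR-130a was 2.09 higher (SE 0.71, edgeR FDR 0.0361) and eca-miR-301a 2.44 higher (SE 0.73, edgeR FDR 0.0287), each in 5 of 5 mares without overlap after TMM. Both rest on few YS reads. Eca-miR-301a had reads in 3 of 5 YS libraries, its embryo reads alone met the low-count filter, and filterByExpr removed it. Per library total, its embryo level in mares 1 and 4 (177 and 381 CPM) was below 3 reads of the YS library (396 and 689 CPM). An equal level could thus not have been seen in these YS libraries. Pooled per library total, the ratio was 2.82 (exact 95% interval 1.80 to 4.66, 197 against 21 reads) for eca-miR-130a and 3.91 (1.59 to 12.4, 65 against 5 reads) for eca-miR-301a. Per library total, YS sample 2 had more eca-miR-130a than its embryo. Neither call held without mare 1, 3, 4 or 5 (edgeR FDR 0.0575 to 0.128), eca-miR-130a was not called with RLE size factors (1.80, edgeR FDR 0.0726) or without a low-count filter (1.94, edgeR FDR 0.0661), and with library totals neither held (1.504, edgeR FDR 0.0891, and 1.90, edgeR FDR 0.0568).

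Eca-miR-130b was 1.16 higher in embryos than in YS fluid (SE 0.50, edgeR FDR 0.0827, interval 0.18 to 2.14) and was called in 0 of 13 alternatives. The median of the 3 members was 2.09, beside 0.28 for all miRNAs tested. YS fluid and pregnant UF were extracted with the same kit. Between them the pooled ratio of eca-miR-130b was 90.4 per library total (exact 95% interval 41.3 to 234), with higher YS fluid in 5 of 5 mares. The gap was smaller after TMM over the 28 libraries, with means of 407 CPM in YS fluid and 17.2 CPM in pregnant UF. The early embryonic miRNAs were high in YS fluid and at most 25.3 CPM in pregnant UF, with miR-302b, miR-302c, miR-367, miR-371-3p and miR-372 at 0.

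**Figure D4:**
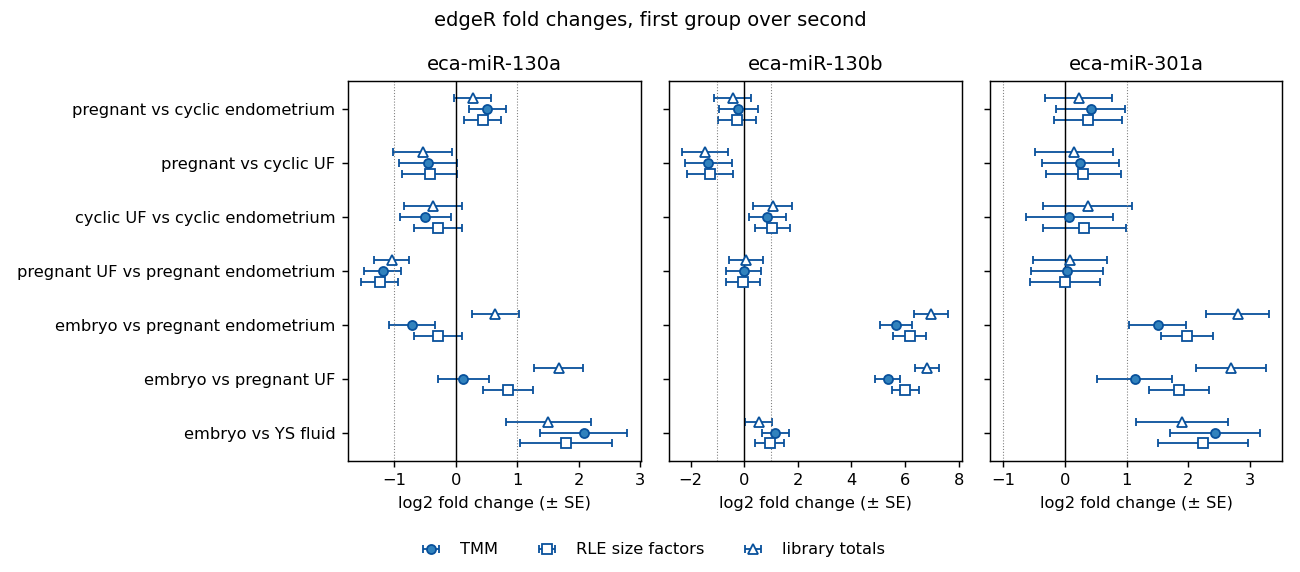
Log2 fold change of 3 members in 7 comparisons (first group over second, x axes that differ between panels), with points for TMM, RLE size factors and library totals, bars for ± SE, a solid line at 0 and dotted lines at a 2-fold change. Eca-miR-130b lies above 5 under each scaling in both comparisons of embryo with the uterus, while eca-miR-130a of embryo against pregnant endometrium runs from -0.71 with TMM to 0.64 with library totals.

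Eca-miR-454, the hairpin neighbour of eca-miR-301a, had 518 reads. Its mean was 42.6 ± 13.1 CPM in cyclic and 43.3 ± 13.8 CPM in pregnant endometrium, 120 ± 89.7 CPM in cyclic and 176 ± 62.2 CPM in pregnant UF, 678 ± 143.7 CPM in embryos and 1273 ± 1129 CPM in YS fluid, where sample 2 reached 3044 CPM. It was called higher in embryo than in pregnant endometrium (2.64, SE 0.37, edgeR FDR 7.06e-05), as eca-miR-301a was. Unlike eca-miR-301a (0.03), it was also called higher in pregnant UF than in pregnant endometrium (1.94, SE 0.39, edgeR FDR 0.00141), although the difference between these 2 miRNAs was not tested.

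Over the 28 libraries, Spearman's correlation of CPM was 0.62 between eca-miR-130b and eca-miR-301a, 0.35 between eca-miR-130a and eca-miR-130b and 0.32 between eca-miR-130a and eca-miR-301a. With eca-miR-454 it was 0.82 for eca-miR-130b, 0.64 for eca-miR-301a and -0.02 for eca-miR-130a. These are descriptions, since libraries of a group share tissue, kit and depth. Among 148 known miRNAs with a mean of at least 100 CPM, those most like eca-miR-130b were eca-miR-16 (0.88), eca-miR-200b (0.88) and eca-miR-128 (0.87), beside a median of 0.04 over the 148. Those most like eca-miR-301a were eca-miR-19a (0.77), eca-miR-362-5p (0.70) and eca-miR-106b (0.68). Those most like eca-miR-130a were eca-miR-151-5p (0.61), eca-miR-15a (0.60) and eca-miR-148a (0.55), so that its closest neighbour was less alike than that of the other 2 members.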

How the data were processed

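The authors trimmed adapters and removed short or low-quality reads with cutadapt 1.11 (version per the submitters' processing notes), and then used miRPro to count known miRNAs from miRBase and to predict others on the horse genome EquCab2.0. They deposited raw counts per mature miRNA. How reads that match several miRNAs were assigned, and whether close relatives such as eca-miR-130a and eca-miR-130b could exchange reads, is not given in the sources used here. The precursor table repeated the predicted mature counts in 154 of 154 entries and was not used.

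Groups came from the sample titles. The number in a title was taken as the mare, since the study describes pregnant and cyclic cycles of the same mares. Deviations from the group mean correlated at 0.102 on average (0.00903 to 0.163, 4 pairs) in same-mare endometrium, against -0.0258 in other pairs, and at 0.0888 (0.0160 to 0.157) against -0.0222 in UF. No 2 libraries of a group agreed within sampling noise (52 pairs, chi-square test). Where the mare was a block, p-values measure the residual spread of the differences within mares. In the other comparisons the samples of a mare entered as independent libraries, so that spread between and within mares is mixed.

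Known and predicted miRNAs were fitted together, on the libraries of each comparison, in R 4.3.3 (edgeR 4.0.16). A miRNA entered where it reached 1 CPM in a number of libraries no lower than the size of the smaller group. Scaling was by TMM, and the quasi-likelihood test with Benjamini-Hochberg adjustment was used. Pregnant against cyclic fits had the mare as block, so that mare 5 entered the filter, the scaling and the dispersion but not the contrast, and other comparisons had none. SEs are the log2 fold change divided by the root of F, and 95% intervals are normal intervals from them. The pipeline was tested on simulated data. Alternatives were the likelihood ratio test, DESeq2 1.42.0, RLE size factors, no filter, filterByExpr, known miRNAs only, the block left out or added, and each replicate left out. Library totals in place of TMM were added after seeing the data. Levels and exact tests were computed in Python 3.11.15 (scipy 1.17.1, pandas 2.3.3, numpy 2.4.6), and plots drawn with matplotlib 3.10.9.

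The members and marker lists were chosen with earlier results of these data known. Named are all members, the miRNA whose gene lies within 10 kb of a member's, the 3 miRNAs most correlated with each member of at least 100 reads, and the markers.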

Additional observations from a re-analysis of the deposited data

Results flagged for a closer look

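Among 28 groups of member values, 3 held a sample far from the others by Dixon's test, which chance gives in about 1 in 20 groups. For eca-miR-301b-3p the 2 reads of cyclic UF sample 2 (8.84 CPM) stood against 0 in the other 3 samples, and for eca-miR-301b-5p the 1 read of embryo 3 (27.6 CPM) stood against 0 in the other 4. Both are counts under 3 reads. A lone sample with reads beside samples without any is always flagged, so that the rate given above does not hold for these groups. The family sum of pregnant UF was lowest in mare 1, at 296.9 CPM, while the other 4 samples had 417 CPM or more.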

How the results depend on the processing

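In pregnant against cyclic endometrium and UF and in cyclic UF against cyclic endometrium, 0 members were called under each alternative. In the interaction 0 were called with RLE size factors, library totals, no filter, no block and single mares left out, and the likelihood ratio test, DESeq2, filterByExpr and known miRNAs only were not run there. In pregnant against cyclic mares, leaving the replicate block out gave 0 called members, with 0.42 for eca-miR-130a in endometrium. Between embryo and pregnant endometrium the number called stayed at 2 to 3, and in pregnant UF against pregnant endometrium at 1. Between embryo and pregnant UF it rose from 1 to 2 with DESeq2, RLE size factors, no filter, filterByExpr and known miRNAs only, to 3 with library totals (chosen after seeing the data), and ranged from 1 to 3 with single mares left out (3 without mare 1). Between embryo and YS fluid it fell from 2 to 1 with RLE size factors and filterByExpr and to 0 with library totals, and ranged from 0 to 2 (1 without mare 1, 0 without mare 3, 4 or 5). Some of these counts hold eca-miR-301b-3p, which had no read in pregnant UF or YS fluid and was tested through its embryo reads alone, so that its calls there say nothing. Leaving it out, the count against pregnant UF was 1 without a filter and 2 without mare 1, and the count against YS fluid was 1 without a filter and 0 without mare 1.

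Signs turned for differences that were not called. These were eca-miR-301a in pregnant against cyclic UF (-0.027 without the block, -0.20 to 0.77 without single mares), eca-miR-130a in embryo against pregnant endometrium (0.64 with library totals) and eca-miR-130b in pregnant UF against pregnant endometrium (0.063 with library totals, 0.17 with known miRNAs only, 0.14 with the replicate block, -0.45 to 0.39 without single mares). The others were eca-miR-301a in the latter comparison (-0.079 without a filter, -0.27 to 0.18 without single mares) and in cyclic UF against cyclic endometrium (-0.51 to 0.59), eca-miR-130a in embryo against pregnant UF (-0.048 to 0.77), and eca-miR-301a in the interaction (0.026 with RLE size factors, -0.91 to 0.64 without single mares). Of the other log2 fold changes, 266 kept their direction and side of the threshold, 7 were newly called and 14 lost their call. The cause was not tested.

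RLE size factors moved the median of all miRNAs by 0.47 in embryo against pregnant endometrium, 0.60 against pregnant UF, -0.16 against YS fluid, 0.21 in cyclic UF against endometrium and 0.25 in the interaction. They moved the share of calls higher in embryo than in pregnant UF from 43.4 to 53.7%, and library totals to 63.2%. Library totals took that share from 62.6 to 42.1% against YS fluid. Over all miRNAs, the 13 calls of pregnant against cyclic endometrium became 3 with filterByExpr, 2 with known miRNAs only and 0 without the block. The 15 calls in UF became 7 with DESeq2, 3 with known miRNAs only, 0 with filterByExpr or without the block, and 2 to 26 without single mares. FilterByExpr gave 140 calls in place of 256 (embryo against pregnant endometrium), 75 in place of 121 (pregnant UF against endometrium), 101 in place of 212 (embryo against pregnant UF) and 40 in place of 91 (embryo against YS fluid), where the replicate block gave 54 and single mares left out 40 to 74. The 7 interaction calls became 0 without the block and 0 to 20 without single mares. Depth limits YS fluid most, where 3 reads are 206 to 689 CPM.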
